A study of Mus musculus with 8 samples.

Results

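The genes described here are 10 angiogenic factors and endothelial genes, chosen by symbol: the ligands Vegfa, Vegfb, Vegfc, Pgf and Angpt1, the receptors Kdr, Flt1 and Tek, and the endothelial junction genes Pecam1 and Cdh5. All 10 were found among the 51822 gene symbols of the RNA sequencing files. The cells are mouse osteoblastic cells, which the sample labels name MC3T3-E1 (a clonal osteoblast precursor line from calvaria) and the methods name cultured calvarial cells. They were grown in osteogenic medium (alpha-MEM with serum, ascorbic acid, dexamethasone and β-glycerophosphate), which every group shared. The 4 groups were DMSO vehicle (control) and LAMZ at 1 µM, each harvested on day 7 and on day 14, with 2 libraries per group. LAMZ (locamidazole) is an aminoindazole derivative. Nothing in the labels says whether the 2 libraries of a group came from separate cultures, so the p values measure only the spread between these libraries.

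VEGF ligands are secreted proteins that drive the growth of blood and lymphatic vessels through receptor tyrosine kinases on endothelial cells. Vegfa acts mainly through Kdr (VEGFR2), with Flt1 (VEGFR1) as a high-affinity receptor that can also act as a decoy, and Vegfc acts mainly through Flt4 (VEGFR3). The angiopoietins bind the receptor Tek (TIE2), with Angpt1 as its activating ligand. In bone, osteoblasts are a known source of VEGF, which couples vessel growth to bone formation. Pecam1 (CD31) and Cdh5 (VE-cadherin) hold endothelial cells together at their junctions and are used as markers of these cells.

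Upstream sequences of Vegfa, Vegfc and Tek are shown because these genes passed the test between LAMZ-treated and control cells and had an entry in the RefSeq promoter table (GRCm38.p6). That table held 7 of the 10 genes: Vegfa, Vegfb, Vegfc, Pgf, Kdr, Flt1 and Tek. Each run gives the 250 bases before the transcription start in the direction of the gene, and capitals mark a GC box, GGGCGG or CCGCCC on the other strand, a motif bound by Sp family factors.
Vegfa, chr17:46032378-46032627, minus strand: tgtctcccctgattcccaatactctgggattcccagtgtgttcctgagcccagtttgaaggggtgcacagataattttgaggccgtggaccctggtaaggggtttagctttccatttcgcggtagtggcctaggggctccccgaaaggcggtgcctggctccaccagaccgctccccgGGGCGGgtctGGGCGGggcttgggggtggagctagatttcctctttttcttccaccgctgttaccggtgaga
Vegfc, chr8:54077282-54077531, plus strand: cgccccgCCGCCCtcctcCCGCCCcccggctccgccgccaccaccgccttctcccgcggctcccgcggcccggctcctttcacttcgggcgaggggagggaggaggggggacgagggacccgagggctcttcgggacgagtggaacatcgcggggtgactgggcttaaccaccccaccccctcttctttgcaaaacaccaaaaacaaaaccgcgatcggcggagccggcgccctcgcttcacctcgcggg
Tek, chr4:94739039-94739288, plus strand: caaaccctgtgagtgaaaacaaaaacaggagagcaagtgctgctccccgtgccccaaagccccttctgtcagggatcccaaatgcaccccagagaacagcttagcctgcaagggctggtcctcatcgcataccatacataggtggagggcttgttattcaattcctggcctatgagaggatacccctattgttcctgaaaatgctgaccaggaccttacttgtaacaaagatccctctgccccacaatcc
The Vegfa and Vegfc windows each held 2 GC boxes and the Tek window held 0, and 32.7% of the 32851 promoters in the table held at least 1. The Vegfc window had 30 CpG dinucleotides and a GC content of 71.6%, the Vegfa window 11 and 59.2%, and the Tek window 2 and 51.2%, against medians of 6 and 52.4% over all promoters. The core letters of the hypoxia response element, ACGTG or CACGT on the other strand, were absent from these 3 windows and present in 16.6% of all promoters. Vegfa has a further RefSeq start inside the gene, and the 250 bases before it (chr17:46025164-46025413, minus strand) held 1 match, as CACGT. That window therefore lies within the Vegfa gene itself. Sequence farther than 250 bases before a start was not searched. A match is a description of the letters and not a binding site.

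In the GENCODE M21 annotation of GRCm38 (the labels name the same assembly as mm10), Vegfa lies on chromosome 17 from 46016993 to 46032369, minus strand, and Vegfc on chromosome 8 from 54077606 to 54187096, plus strand. Tek lies on chromosome 4 from 94739289 to 94874976, plus strand, and Angpt1 on chromosome 15 from 42424723 to 42676977, minus strand. Values are RPKM, that is, reads counted for a gene and divided by its length and by the depth of the library. Angpt1 overlaps Gm17473 and Cdh5 overlaps Gm29682 on the opposite strand. No source used here says whether reads were counted by strand, so reads of these pairs cannot be told apart.

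The libraries held from 3463614 to 5832215 mapped reads, recovered from the RPKM values as the depth at which low values become whole reads. Tests covered the 12514 genes that reached 1 RPKM in 2 or more libraries and ran on the log2(RPKM + 1) scale with limma. A gene was called at an adjusted p (Benjamini-Hochberg over all tested genes) under 0.05. All 12 osteoblast markers examined passed this filter, with Runx2 between 7.89 and 18.7 RPKM and Sp7 between 17.7 and 62.2 RPKM. Markers of macrophages, which a clonal osteoblast line should lack, were present in the control libraries. Their 16 symbols summed to 462.6 and 599.1 RPKM at day 7 and to 1120 and 1162 RPKM at day 14 in control cells, against 7.50 to 9.33 RPKM in the 4 LAMZ libraries. Of the 15 macrophage markers tested, 12 fell at day 7 and 14 at day 14, beside 8.49% and 16.0% of all tested genes. All but Lyz2 (14 of 15) passed the filter through control libraries alone, with fewer than 2 LAMZ libraries at 1 RPKM, so these counts are a description and not support. C1qa, C1qb and C1qc, subunits of complement C1q, were at 0 in all 4 LAMZ libraries. Csf1r, the receptor of macrophage colony-stimulating factor, was at 7.33 and 9.04 RPKM in day 7 control cells, at 16.8 and 17.3 RPKM in day 14 control cells and between 0.336 and 0.421 RPKM with LAMZ. Lyz2 (lysozyme) was between 312.2 and 789.3 RPKM in control and between 5.29 and 8.20 RPKM in LAMZ libraries. The pan-leukocyte gene Ptprc (CD45) did not exceed 1.15 RPKM anywhere and was also lower with LAMZ. Its summed reads were 25 in control and 2 in LAMZ libraries at day 7, and 129 and 1 at day 14. The part of these markers in the results on the 10 genes was not tested. In bulk RNA, fewer cells of a type and less RNA per cell cannot be told apart.

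Over all tested genes, the median log2 fold change was −0.08 at day 7 and −0.15 at day 14. With LAMZ, 544 genes were called higher and 1063 lower at day 7, and 871 higher and 2007 lower at day 14. This split depended on the scaling between libraries. With RPKM scaled to the same sum it was 312 higher and 3280 lower at day 7 and 473 higher and 5323 lower at day 14, with medians of −0.31 and −0.43. With libraries centred on their median it was 857 higher and 745 lower at day 7 and 1608 higher and 1249 lower at day 14. For day 14 against day 7 in LAMZ-treated cells the split was 638 higher and 1159 lower, 966 and 556 with the same sum, and 923 and 906 with centred medians. For day 14 against day 7 in control cells it was 308 higher and 300 lower, and 972 and 163 with the same sum.

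Of the 10 genes, 5 passed the filter (Vegfa, Vegfb, Vegfc, Angpt1 and Tek) and 5 did not (Pgf, Kdr, Flt1, Pecam1 and Cdh5). Vegfc and Tek passed only through control libraries, so counts over the tested genes are a description and not support. Vegfa was by far the most abundant, at an RPKM above that of 88.7% of tested genes in day 7 control cells and of 96.3% in day 14 LAMZ cells. In day 7 control cells it was followed by Angpt1, Vegfb, Tek, Vegfc, Flt1, Cdh5, Pecam1, Kdr and Pgf. Neighbours whose libraries overlapped in that order were Angpt1 and Vegfb, then Tek, Vegfc and Flt1, then Pecam1, Kdr and Pgf. In day 14 control cells the order was Vegfa, Angpt1, Vegfb, Tek, Vegfc, Cdh5, Flt1, Pgf, Kdr and Pecam1, with overlap among Vegfc, Cdh5 and Flt1 and between Kdr and Pecam1. With LAMZ at day 7 it was Vegfa, Angpt1, Vegfb, Vegfc, Cdh5, Flt1, Pgf, Tek, Pecam1 and Kdr, with overlap between Vegfc and Cdh5 and from Flt1 through Kdr. With LAMZ at day 14 it was Vegfa, Vegfb, Angpt1, Pgf, Flt1, Cdh5, Tek, Vegfc, Pecam1 and Kdr, with overlap from Pgf through Tek and from Vegfc through Kdr.

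**Figure D1:**
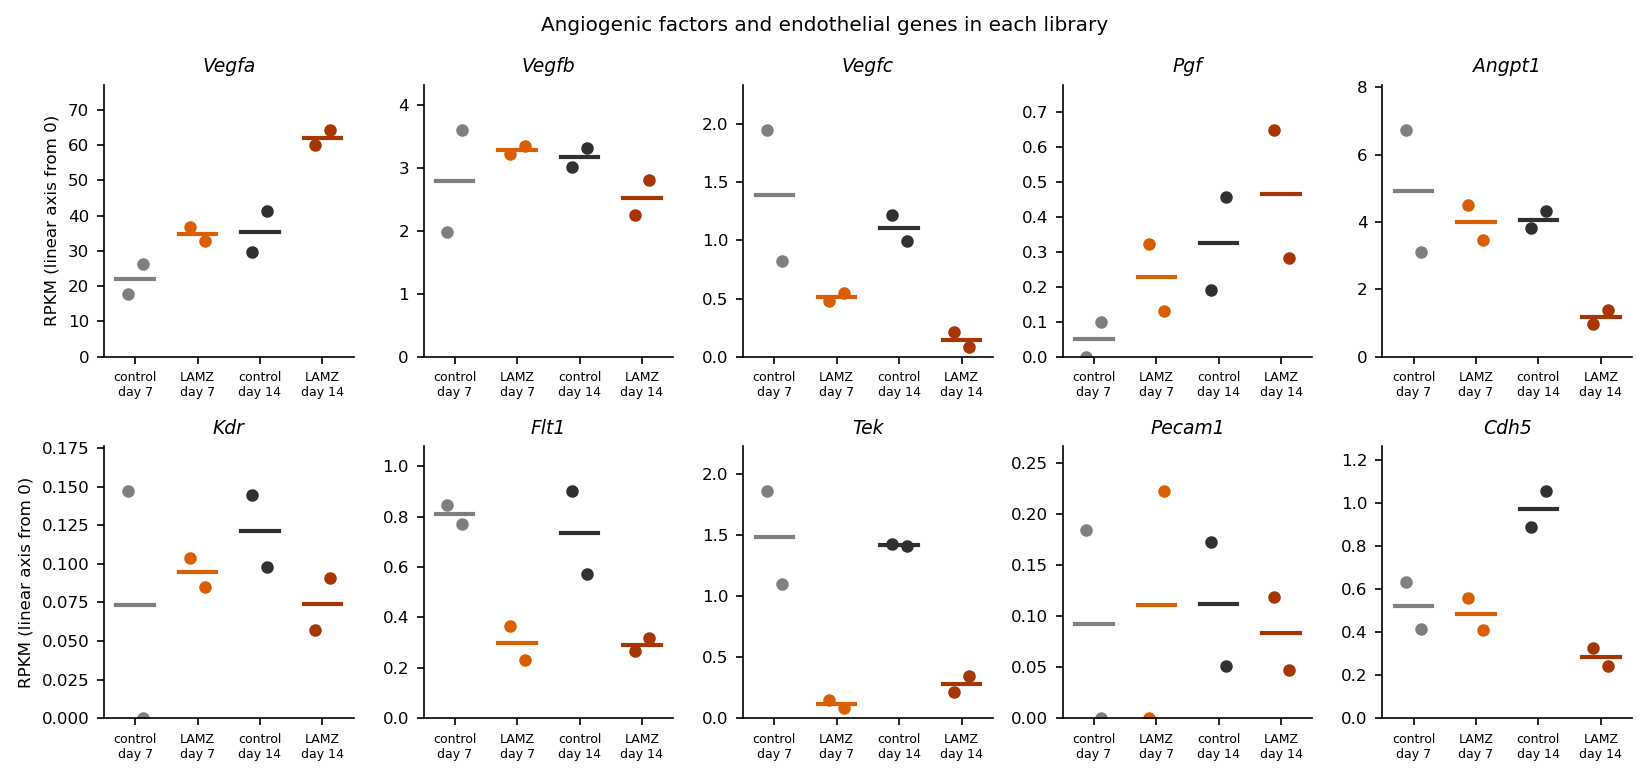
RPKM of the 10 genes in each of the 8 libraries (points) with the group mean (bar), on a linear axis from 0 that differs between panels. Vegfa reached 59.9 and 64.2 RPKM with LAMZ at day 14, above the other groups, whereas Tek was under 0.35 RPKM in the 4 LAMZ libraries and above 1.1 RPKM in the 4 control libraries.

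Vegfa was higher in LAMZ-treated cells than in control cells at each day, and the difference passed the test at day 14. At day 7 its level was 17.9 and 26.4 RPKM in control and 36.8 and 32.6 RPKM in LAMZ libraries, and at day 14 it was 29.8 and 41.1 RPKM in control and 59.9 and 64.2 RPKM in LAMZ libraries. The groups did not overlap at either day, and day 7 LAMZ libraries lay within the range of day 14 controls. These values rest on 289 to 1497 reads per library. Means were 22.1 ± 6.03 and 34.7 ± 2.95 RPKM at day 7 (SD, n = 2 libraries each), a ratio of 1.57, and 35.5 ± 8.04 and 62.1 ± 3.07 RPKM at day 14, a ratio of 1.75. The log2 fold change of RPKM + 1 was 0.65 (SE 0.21, adjusted p = 0.083) at day 7 and 0.81 (SE 0.21, adjusted p = 0.027) at day 14. The day 14 call was lost with the same sum of RPKM (0.45, adjusted p = 0.14) and with all detected genes tested (adjusted p = 0.076). It was also lost without control replicate 1 of day 14 (0.58, adjusted p = 0.137), without LAMZ replicate 1 (adjusted p = 0.09) or without LAMZ replicate 2 (adjusted p = 0.129). Without control replicate 2 of day 7, the day 7 difference passed the test (0.92, adjusted p = 0.038).

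Vegfa was also higher at day 14 than at day 7 in both treatments. In LAMZ-treated cells the log2 fold change was 0.82 (SE 0.21, adjusted p = 0.037), a ratio of means of 1.79, and in control cells it was 0.66 (SE 0.21, adjusted p = 0.116), a ratio of 1.60. The call in LAMZ-treated cells was lost without any 1 of their 4 libraries (adjusted p from 0.112 to 0.183), with no filter (0.106) and with no mean-variance trend (0.0532). The value in control cells passed the test with the same sum of RPKM (0.91, adjusted p = 0.048). The difference between the LAMZ effects at the 2 days was 0.16 (95% interval −0.52 to 0.84, adjusted p = 0.83).

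Vegfb, a ligand of Flt1, did not pass the test in any comparison. It measured 1.98 and 3.60 RPKM in control and 3.21 and 3.35 RPKM in LAMZ libraries at day 7. At day 14 the values were 3.02 and 3.31 RPKM in control and 2.24 and 2.81 RPKM in LAMZ libraries. The log2 fold change with LAMZ was 0.21 (95% interval −0.26 to 0.68, adjusted p = 0.56) at day 7 and −0.24 (−0.72 to 0.23, adjusted p = 0.43) at day 14. The groups overlapped at day 7 and not at day 14, and the day 7 value changed sign with the same sum of RPKM (−0.02, adjusted p = 0.95). With 12 to 28 reads per library, a difference of this size was not detectable at this depth. The ratio of Vegfa to Vegfb was between 7.34 and 12.4 in the control libraries and the day 7 LAMZ libraries and was 26.7 and 22.9 in the day 14 LAMZ libraries.

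Vegfc, a lymphangiogenic ligand, fell with LAMZ at day 14. It passed the filter only through control libraries, so its call is a description and not support. Its level at day 7 was 1.95 and 0.825 RPKM in control (18 and 7 reads) and 0.479 and 0.549 RPKM in LAMZ libraries (5 and 7 reads). On day 14 Vegfc was at 1.22 and 0.994 RPKM in control (16 and 11 reads) and 0.210 and 0.0836 RPKM in LAMZ libraries (3 reads and 1 read). LAMZ libraries were below control libraries at both days without overlap. The log2 fold change was −0.62 (SE 0.26, adjusted p = 0.173) at day 7 and −0.88 (SE 0.26, adjusted p = 0.047) at day 14. The day 7 value was −0.27 (adjusted p = 0.56) without control replicate 1 of that day and −0.96 (0.051) without control replicate 2. On pooled reads the day 14 level was 7.31-fold lower, with an exact 95% interval from 2.55 to 28.8 that covers counting error only. The day 14 call was among the least stable: it was lost with centred medians (−0.69, adjusted p = 0.098), quantile normalization, a pseudocount of 5 and no filter. It was also lost when any 1 of the day 14 libraries (adjusted p from 0.117 to 0.183) or of the day 7 LAMZ libraries (0.0718 and 0.0723) was left out.

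Pgf (placental growth factor, a Flt1 ligand) did not exceed 11 reads in any library. It was at 0 and 0.0995 RPKM in day 7 control, 0.323 and 0.132 RPKM in day 7 LAMZ, 0.192 and 0.457 RPKM in day 14 control and 0.650 and 0.282 RPKM in day 14 LAMZ libraries. A count of 0 in day 7 control replicate 1 allows up to 0.274 RPKM. Pooled reads with LAMZ, scaled by library depth, were 4.58 times those of control at day 7 (exact 95% counting interval 0.556 to 211) and 1.54 times at day 14 (0.631 to 3.99), so no difference was detectable at this depth.

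Angpt1 fell with LAMZ at day 14 and did not pass the test at day 7. At day 7 it measured 6.73 and 3.12 RPKM in control and 4.52 and 3.47 RPKM in LAMZ libraries, which overlapped. Day 14 values were 3.81 and 4.31 RPKM in control and 0.967 and 1.40 RPKM in LAMZ libraries, from 87, 83, 24 and 29 reads, with no overlap. The ratio of means at day 14 was 3.44-fold lower with LAMZ. The log2 fold change was −0.18 (SE 0.28, adjusted p = 0.72) at day 7 and −1.22 (SE 0.28, adjusted p = 0.017) at day 14. In LAMZ-treated cells Angpt1 fell between the days by 1.19 on the log2 scale (SE 0.28, adjusted p = 0.027), and in control cells the change was −0.16 (adjusted p = 0.79), or 0.29 (0.50) without control replicate 1 of day 7. The difference between the LAMZ effects at the 2 days was −1.04 (95% interval −1.94 to −0.13, unadjusted p = 0.030, adjusted p = 0.25), which did not pass the test. Control replicate 1 of day 7 decided the sign of the day 7 value, which was 0.27 (adjusted p = 0.48) without it and −0.64 (0.10) without control replicate 2. The difference between the days was −1.49 (adjusted p = 0.080) without the former and −0.58 (0.34) without the latter. The day 14 call was lost when any 1 of the 4 day 14 libraries was left out (adjusted p from 0.0526 to 0.0957) and with no filter (0.0599). The call between the days was lost without any 1 of the 4 LAMZ libraries (adjusted p from 0.0873 to 0.143), with a pseudocount of 5 (0.0599) and with no filter (0.0956).

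Tek, the angiopoietin receptor, fell with LAMZ at both days and had the only call at day 7. It passed the filter only through control libraries, so these calls are a description and not support. With all detected genes tested by limma, the adjusted p of Tek was 0.037 at day 7 and 0.045 at day 14. It measured 1.86 and 1.10 RPKM in control and 0.149 and 0.0815 RPKM in LAMZ libraries at day 7, from 33, 18, 3 and 2 reads. At day 14 it measured 1.42 and 1.41 RPKM in control and 0.218 and 0.348 RPKM in LAMZ libraries, from 36, 30, 6 and 8 reads. Control and LAMZ libraries did not overlap at either day. The log2 fold change of RPKM + 1 was −1.14 (SE 0.22, adjusted p = 0.015) at day 7 and −0.91 (SE 0.22, adjusted p = 0.022) at day 14, a scale that understates the change of a gene this low. On pooled reads Tek was 13.4-fold lower at day 7 (exact 95% counting interval 5.37 to 42.9) and 5.11-fold lower at day 14 (2.84 to 9.85). The day 7 call was lost without control replicate 1 (−0.92, adjusted p = 0.0704), LAMZ replicate 1 (0.0736) or LAMZ replicate 2 (0.0771) of that day, and with only the 4 day 7 libraries (0.0669). The day 14 call was lost when any 1 of the day 14 libraries was left out (adjusted p from 0.0756 to 0.105) and with quantile normalization (0.0588). The macrophage markers, summed above, were lower in the same LAMZ libraries as Tek. Between the days in control cells their sums rose, and Tek overlapped with a ratio of means of 0.956. The part of these markers in the fall of Tek was not tested.

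Kdr, the main signalling receptor for Vegfa, had at most 7 reads in a library. It measured 0.147 and 0 RPKM in day 7 control, 0.104 and 0.0850 RPKM in day 7 LAMZ, 0.144 and 0.0980 RPKM in day 14 control and 0.0570 and 0.0907 RPKM in day 14 LAMZ libraries. The pooled ratio of LAMZ to control was 1.22 at day 7 (exact 95% counting interval 0.352 to 4.75) and 0.587 at day 14 (0.193 to 1.66), so no difference was detectable at this depth.

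Flt1 was below the filter but lay lower with LAMZ at both days without overlap. It measured 0.847 and 0.773 RPKM in control and 0.364 and 0.232 RPKM in LAMZ libraries at day 7, from 37, 31, 18 and 14 reads. Day 14 values of Flt1 were 0.90 and 0.573 RPKM in control and 0.266 and 0.318 RPKM in LAMZ libraries, from 56, 30, 18 and 18 reads. On pooled reads it was 2.78-fold lower at day 7 (exact 95% counting interval 1.80 to 4.38) and 2.59-fold lower at day 14 (1.73 to 3.93). With every detected gene tested, the log2 fold change was −0.48 (adjusted p = 0.24) at day 7 and −0.42 (adjusted p = 0.24) at day 14, and neither passed. The macrophage markers were also lower with LAMZ at both days. Between the days in control cells their sums rose from 462.6 and 599.1 RPKM to 1120 and 1162 RPKM. Flt1 overlapped between those days, with a ratio of means of 0.909. The part of these markers in Flt1 was not tested.

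Pecam1 was at the limit of detection, with 0 to 5 reads per library and 0.222 RPKM at most. It was at 0 in day 7 control replicate 2 and in day 7 LAMZ replicate 1, where a count of 0 allows up to 0.201 and 0.163 RPKM. Control and LAMZ libraries overlapped at both days, with pooled ratios of 1.27 (exact 95% counting interval 0.248 to 8.19) and 0.738 (0.147 to 3.43).

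Cdh5 measured 0.631 and 0.412 RPKM in control and 0.558 and 0.411 RPKM in LAMZ libraries at day 7, which overlapped. At day 14 it measured 0.886 and 1.05 RPKM in control and 0.326 and 0.244 RPKM in LAMZ libraries, from 20, 20, 8 and 5 reads, with no overlap. The pooled level was 3.33-fold lower with LAMZ at day 14 (exact 95% counting interval 1.75 to 6.79) and the ratio was 0.907 at day 7 (0.442 to 1.89). With every detected gene tested, the log2 fold change at day 14 was −0.62 (adjusted p = 0.086), which did not pass. The macrophage markers were lower with LAMZ at day 7 as well as at day 14, and Cdh5 overlapped at day 7. Between the days in control cells the sums of these markers rose. Cdh5 was also higher at day 14 than at day 7 in control cells without overlap, with a ratio of means of 1.86. With every detected gene tested, that change was 0.37 (adjusted p = 0.44), which did not pass. The part of these markers in Cdh5 was not tested.

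**Figure D2:**
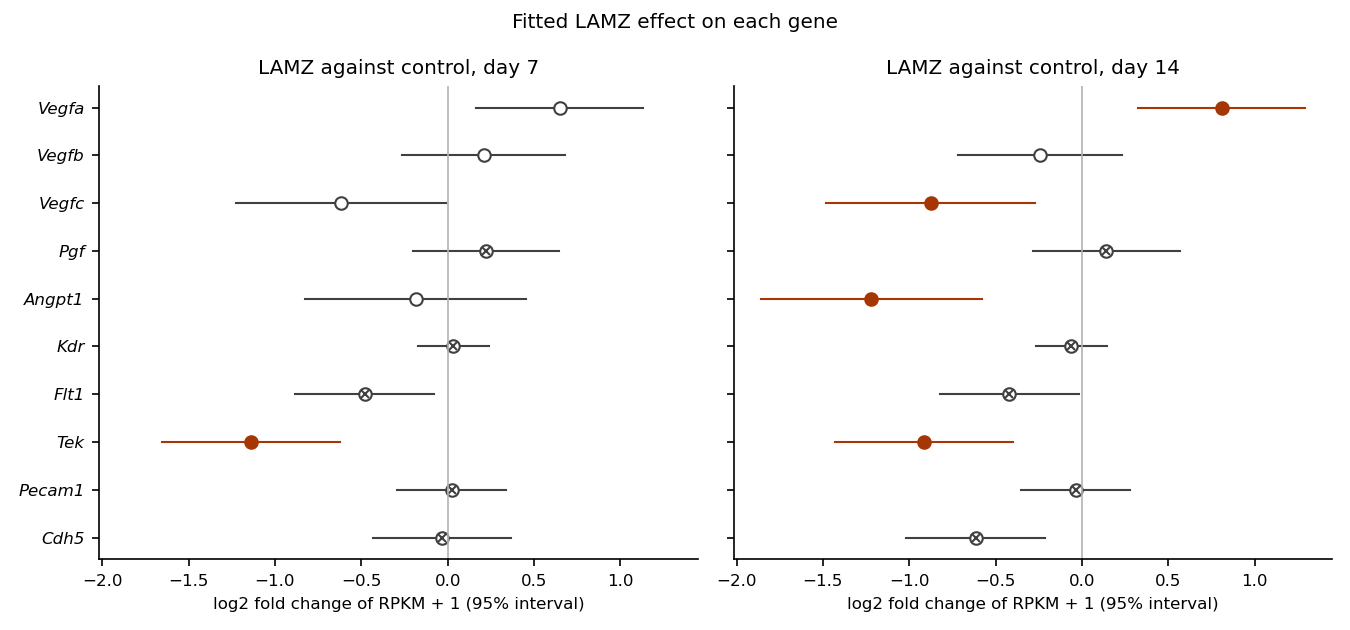
Fitted log2 fold change of RPKM + 1, LAMZ against control, for each gene at day 7 and day 14, with its 95% interval. Filled points passed the test, open points did not, and crossed points are genes below the filter, whose values come from the fit with all detected genes; at day 14 Vegfa rose and Vegfc, Angpt1 and Tek fell, and at day 7 Tek alone of the 5 tested genes passed the test, as a fall.

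In counts, 1 of the 5 tested genes was called at day 7 (Tek, lower), beside 12.8% of all tested genes (4.35% higher and 8.49% lower). At day 14, 4 of 5 were called, 1 higher (Vegfa) and 3 lower (Vegfc, Angpt1 and Tek), beside 23.0% of all tested genes (6.96% higher and 16.0% lower). The median log2 fold change of the 5 was −0.18 at day 7 and −0.88 at day 14, the latter being the value of Vegfc itself. Vegfc and Tek passed the filter only through control libraries, which favours falls. These counts and medians are therefore a description and not support. Between the days, 0 of 5 were called in control cells (1 at an unadjusted p under 0.05), beside 4.86% of all tested genes. In LAMZ-treated cells 2 of 5 were called, Vegfa higher and Angpt1 lower, beside 14.4% of all tested genes (5.10% higher and 9.26% lower). For the difference of the LAMZ effect between the days, 0 of 5 were called (1 at an unadjusted p under 0.05), beside 0.623% of all tested genes. The comparisons with LAMZ and those over time share libraries.

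The other genes of the VEGF and angiopoietin families came from a list of 11 symbols, of which 10 were in the files and 8 were tested. With LAMZ, 1 rose and 4 fell at day 7 (median −0.68), and 0 rose and 4 fell at day 14 (median −0.63). Shares over all tested genes were 4.35% higher and 8.49% lower at day 7, and 6.96% higher and 16.0% lower at day 14. Vegfd, a ligand of Flt4, was at 37.6 and 33.0 RPKM in day 7 control and 6.33 and 8.29 RPKM in day 7 LAMZ libraries. At day 14 Vegfd was at 34.9 and 33.2 RPKM in control and 2.14 and 2.21 RPKM in LAMZ libraries. Its log2 fold change was −2.13 (adjusted p = 0.00014) at day 7 and −3.46 (adjusted p = 6.3e-06) at day 14. Vegfd thus exceeded Vegfa in 3 of the 4 control libraries and was below it in all 4 LAMZ libraries.

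The ratio of Vegfa to Vegfd was 0.476 and 0.801 in day 7 control and 5.82 and 3.94 in day 7 LAMZ libraries. At day 14 it was 0.854 and 1.24 in control and 28.0 and 29.0 in LAMZ libraries. As a share of the summed RPKM of the 5 VEGF ligands, Vegfa made up 30.1% and 41.3% in day 7 control libraries and 92.0% and 92.3% in day 14 LAMZ libraries. The summed RPKM itself was 59.4 and 63.9 in day 7 control, 47.2 and 45.0 in day 7 LAMZ, 69.1 and 79.2 in day 14 control and 65.1 and 69.6 in day 14 LAMZ libraries. The sum thus overlapped between control and LAMZ at day 14 and not at day 7.

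**Figure D3:**
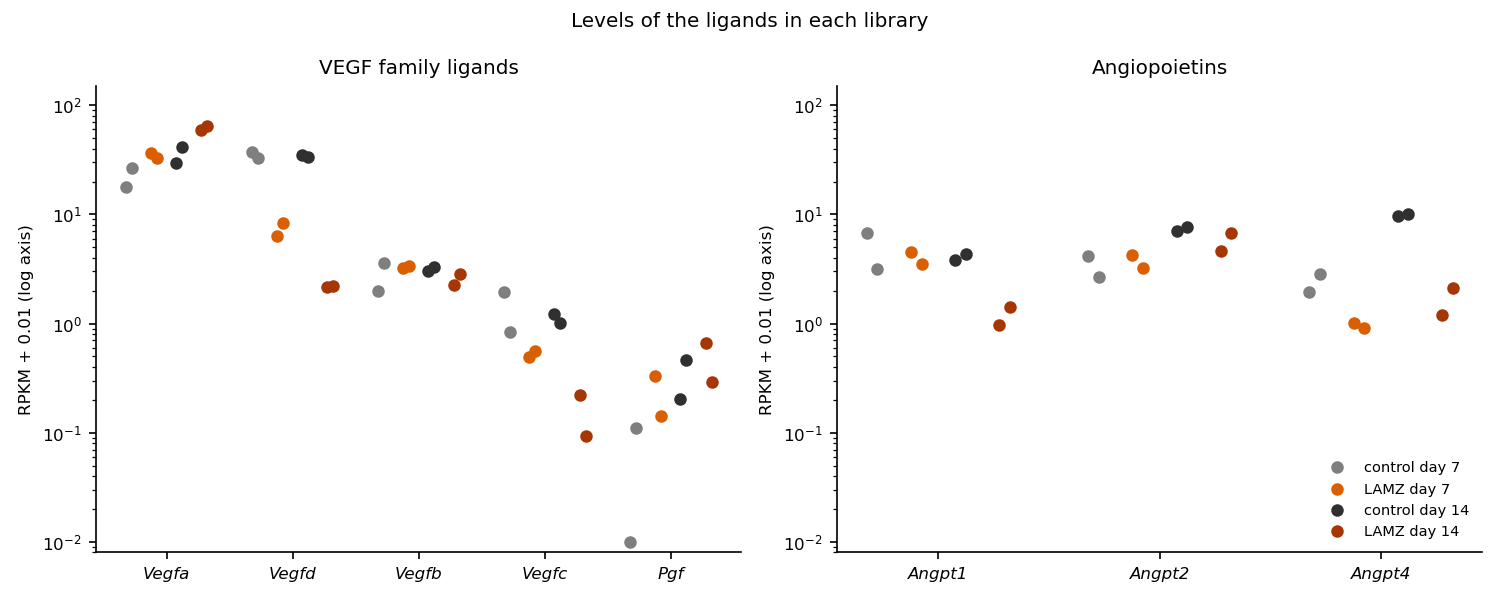
RPKM + 0.01 of the VEGF family ligands (left) and the angiopoietins (right) in each library, on a log axis, with colours for the 4 groups. Vegfd fell from over 30 RPKM in control libraries to 2.14 and 2.21 RPKM with LAMZ at day 14, while Vegfa was at 59.9 and 64.2 RPKM in those LAMZ libraries.

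Angpt2, a context-dependent antagonist of Angpt1 at Tek, measured 4.17 and 2.66 RPKM in control and 4.19 and 3.22 RPKM in LAMZ libraries at day 7. By day 14 Angpt2 measured 7.06 and 7.67 RPKM in control and 4.60 and 6.72 RPKM in LAMZ libraries. Its log2 fold change with LAMZ was 0.11 (adjusted p = 0.80, −0.13 with the same sum of RPKM) at day 7 and −0.35 (adjusted p = 0.29) at day 14, with a call at day 14 only when libraries were scaled to the same sum (−0.67, adjusted p = 0.032). The ratio of Angpt1 to Angpt2 was 1.61 and 1.17 in day 7 control, 1.08 and 1.08 in day 7 LAMZ, 0.539 and 0.562 in day 14 control and 0.210 and 0.208 in day 14 LAMZ libraries. Angpt4, a further Tek ligand, was at 9.73 and 10.0 RPKM in day 14 control and 1.18 and 2.10 RPKM in day 14 LAMZ libraries (−2.07, adjusted p = 0.00037). At day 7 it was at 1.93 and 2.84 RPKM in control and 1.00 and 0.904 RPKM in LAMZ libraries (−0.78, adjusted p = 0.042), a call that held in 8 of 20 alternatives. That call was lost without control replicate 2 or either LAMZ replicate of day 7 and without either control replicate of day 14 (adjusted p from 0.0708 to 0.163).

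The receptor Tie1, the partner of Tek, had at most 1 read in a library. Flt4, the receptor of Vegfc and Vegfd, was between 0.0285 and 0.258 RPKM. Of the co-receptors, Nrp1 fell at both days, from 5.85 and 6.08 RPKM to 2.97 and 3.14 RPKM at day 7 and from 7.06 and 6.60 RPKM to 3.54 and 4.02 RPKM at day 14 (−0.78 and −0.71, adjusted p = 0.0048 and 0.0040). Nrp2 rose at day 7, from 18.7 and 19.5 RPKM to 32.6 and 34.4 RPKM (0.78, adjusted p = 0.0046), and its day 14 value was 0.23 (adjusted p = 0.18), which was −0.12 with the same sum of RPKM and passed the test with centred medians (0.42, adjusted p = 0.020). The angiopoietin-like gene Angptl1 fell at day 14 (−1.60, adjusted p = 0.0063). Angptl4, an inhibitor of lipoprotein lipase, fell at day 7 (−0.92, adjusted p = 0.017), a call lost when any 1 of the day 7 libraries was left out (adjusted p from 0.0571 to 0.0954).

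Endothelial identity was checked with 35 other markers of these cells, of which 24 stayed under 1 RPKM in all 8 libraries. The tight junction gene Cldn5 was at 0 in every library, which allows up to 0.612 RPKM in the shallowest one. Emcn and Vwf did not exceed 3 and 9 reads. Of the 10 markers tested, 1 rose and 5 fell at day 7 (median −0.58), and 2 rose and 5 fell at day 14 (median −0.51). Over all tested genes 4.35% rose and 8.49% fell at day 7, and 6.96% rose and 16.0% fell at day 14. Of the 10 markers 5 (Egfl7, Cd34, Cd93, Clec14a and Stab1) passed the filter through control libraries alone, which favours falls, so these counts are a description and not support. S1pr1, a receptor of sphingosine 1-phosphate and the most abundant of these markers, rose from 22.1 and 24.4 RPKM to 33.9 and 30.1 RPKM at day 7 (0.44, adjusted p = 0.047) and from 36.8 and 35.2 RPKM to 49.5 and 54.5 RPKM at day 14 (0.52, adjusted p = 0.018). The S1pr1 calls held in 4 of 20 alternatives at day 7, where leaving out any 1 of the 8 libraries ended the call (adjusted p from 0.0663 to 0.251), and in 15 of 20 at day 14, where they were lost without either control replicate or LAMZ replicate 2 of that day (0.0559, 0.0837 and 0.11). With the same sum of RPKM neither passed (0.15 and 0.16, adjusted p = 0.42 and 0.33). Erg, an ETS family transcription factor, rose at day 14 from 1.18 and 0.638 RPKM to 3.51 and 3.13 RPKM (1.19, adjusted p = 0.0076), a call lost without control replicate 2 (0.052) or LAMZ replicate 1 (0.0532) of that day, and its day 7 value was 0.81 (adjusted p = 0.053). Eng (endoglin), between 13.8 and 20.2 RPKM in all libraries, did not pass the test at day 7 (−0.35, adjusted p = 0.17, or −0.64 and 0.024 with the same sum of RPKM) or at day 14 (0.06, adjusted p = 0.80, or −0.28 and 0.18 with the same sum). The largest falls were in Stab1, a scavenger receptor also made by macrophages, from 12.8 and 22.0 RPKM to 0.342 and 0.448 RPKM at day 7 and from 27.9 and 31.7 RPKM to 0.400 and 0.358 RPKM at day 14. Cd34, also a marker of progenitors, fell from 7.01 and 6.50 RPKM to 0.689 and 0.639 RPKM at day 7 and from 13.1 and 13.9 RPKM to 0.672 and 0.722 RPKM at day 14. Cd93 fell at day 7 (−1.03, adjusted p = 0.014) and at day 14 (−1.97, adjusted p = 0.00045), and Ecscr fell by 0.97 (adjusted p = 0.047) and 1.32 (adjusted p = 0.0090) on the log2 scale. The day 7 calls held in 15 of 20 alternatives for Cd93 and in 6 of 20 for Ecscr, whose day 7 call was lost without any 1 of the day 7 libraries or either day 14 control library (adjusted p from 0.0505 to 0.242). The day 14 Ecscr call was lost without control replicate 1 (0.051), control replicate 2 (0.0538) or LAMZ replicate 2 (0.0601) of day 14, and the day 7 Cd93 call without control replicate 2 (0.0589), LAMZ replicate 1 (0.0749) or LAMZ replicate 2 (0.0709) of day 7. The macrophage markers were also lower with LAMZ at both days, and their part in these falls was not tested.

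**Figure D4:**
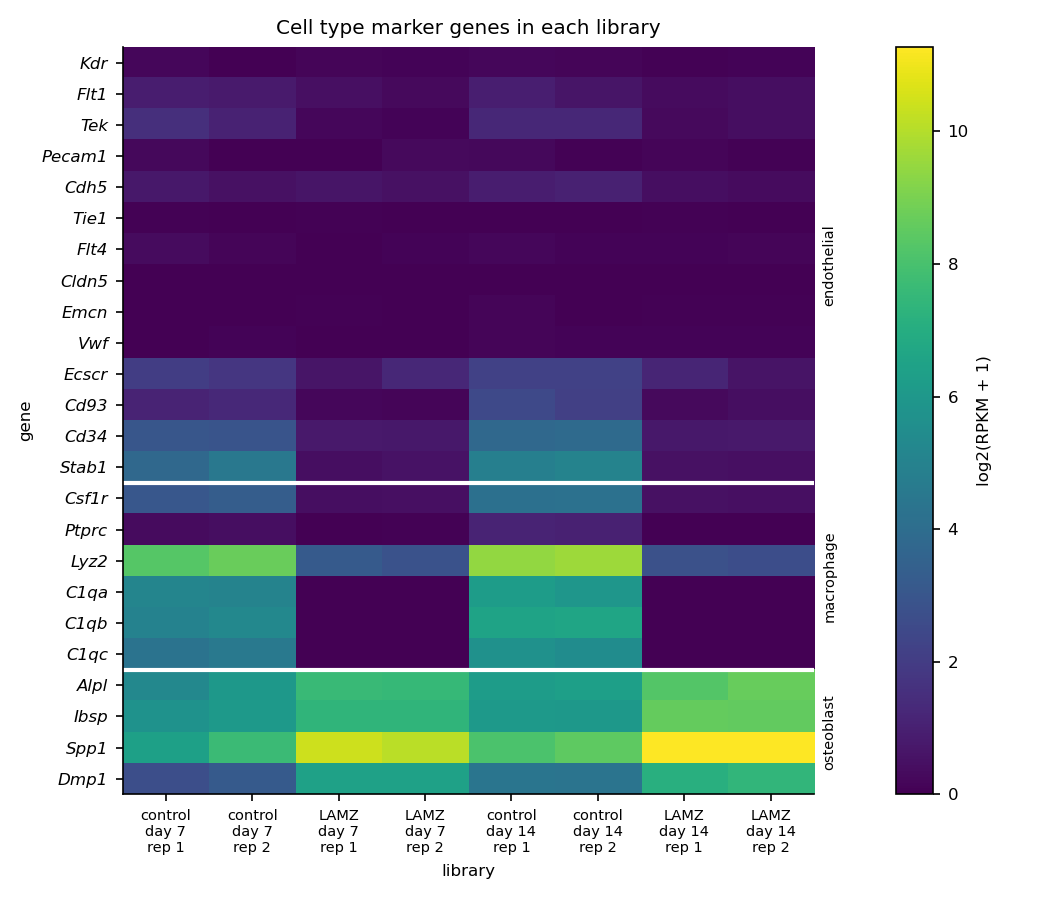
log2(RPKM + 1) of endothelial, macrophage and osteoblast marker genes (rows) in the 8 libraries (columns). Kdr, Pecam1, Tie1, Cldn5, Emcn and Vwf were at or near 0 throughout, C1qa, C1qb and C1qc were at 0 in the 4 LAMZ libraries, and Alpl, Ibsp, Spp1 and Dmp1 were higher with LAMZ.

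Of 14 genes of hypoxia regulation, a pathway for which Vegfa is a known target, 13 were tested. With LAMZ, 7 rose and 3 fell at day 7 (median 0.55, beside −0.08 for all tested genes), and 3 rose and 2 fell at day 14 (median 0.23, beside −0.15). Shares over all tested genes were 4.35% higher and 8.49% lower at day 7, and 6.96% higher and 16.0% lower at day 14. From day 7 to day 14 in control cells, 6 of the 13 rose and 0 fell, beside 4.86% of all tested genes called. In LAMZ-treated cells 1 rose and 2 fell over that time, beside 14.4% called. Egln3, a prolyl hydroxylase that is itself a hypoxia target, rose with LAMZ from 6.08 and 9.65 RPKM to 54.0 and 45.9 RPKM at day 7 (2.55, adjusted p = 0.00038) and from 22.3 and 29.4 RPKM to 54.4 and 57.1 RPKM at day 14 (1.09, adjusted p = 0.0086). Without control replicate 1 or LAMZ replicate 2 of day 14 the Egln3 call of that day was lost (adjusted p = 0.0578 and 0.0556). Car9, a carbonic anhydrase, rose by 2.06 at day 7 (adjusted p = 0.0034, or 0.0516 with only the day 7 libraries) and by 0.94 at day 14 (adjusted p = 0.048). The day 14 Car9 call held in 8 of 20 alternatives and was lost without any 1 of the day 14 libraries or either day 7 LAMZ library (adjusted p from 0.0728 to 0.173). Bnip3, a mitophagy receptor, rose by 1.58 at day 7 (adjusted p = 0.00025), with a day 14 value of 0.23 (adjusted p = 0.21) that was −0.13 with the same sum of RPKM and passed the test with centred medians (0.42, adjusted p = 0.039).

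Among other genes of the list, Ndrg1, Ankrd37 and Egln1 were higher with LAMZ at day 7 and Egln2 was lower. Their ratios of mean RPKM, LAMZ to control, were 2.90, 2.45, 1.70 and 0.568 at day 7. At day 14 these ratios were 1.42, 1.41, 1.24 and 0.831. Adm (adrenomedullin) fell by 1.00 at day 7 (adjusted p = 0.0081) and by 2.01 at day 14 (adjusted p = 0.00017) on the log2 scale; the former was lost without LAMZ replicate 1 of day 7 (0.0744). Hif1a rose by 0.55 at day 7 (adjusted p = 0.039), a call that held in 8 of 20 alternatives and was lost without any 1 of the day 7 libraries or either day 14 LAMZ library (adjusted p from 0.0576 to 0.177). Epas1 (HIF-2α) fell by 1.36 and 1.31 at the 2 days (adjusted p = 0.00045 and 0.00026). The Vegfa difference at day 7 was 0.65, below the values of Egln3, Car9 and Bnip3 on that day, a contrast between genes that was not tested.

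**Figure D5:**
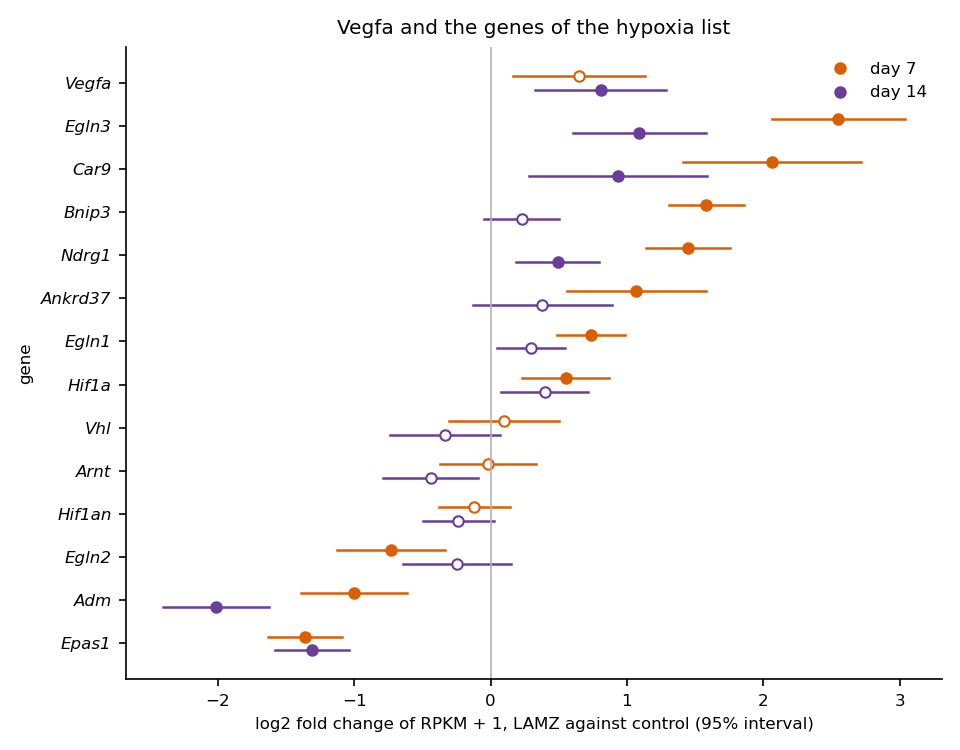
Fitted log2 fold change of RPKM + 1, LAMZ against control, for Vegfa and the 13 tested genes of the hypoxia list, with 95% intervals, at day 7 (orange) and day 14 (purple). Filled points passed the test. At day 7, 7 of the 13 rose and 3 fell, beside 4.35% and 8.49% of all tested genes. At day 14, 3 rose and 2 fell, beside 6.96% and 16.0%.

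Of 17 other angiogenic growth factor symbols 13 were tested, and 3 rose and 2 fell at day 7 (median −0.15), and 4 rose and 6 fell at day 14 (median −0.17). Hgf passed the filter through control libraries alone and Pdgfb through LAMZ libraries alone, so these counts are a description and not support. Shares over all tested genes were 4.35% higher and 8.49% lower at day 7, and 6.96% higher and 16.0% lower at day 14. Cxcl12, the CXCR4 ligand, fell from 23.9 and 19.5 RPKM to 5.22 and 4.88 RPKM at day 7 and from 60.3 and 52.0 RPKM to 6.90 and 6.64 RPKM at day 14. Pdgfa rose from 9.35 and 8.61 RPKM to 26.0 and 28.2 RPKM at day 7 and from 11.9 and 13.0 RPKM to 38.9 and 40.4 RPKM at day 14, and Pdgfd fell at both days (−1.09 and −1.56, adjusted p = 0.0022 and 0.00022). Apln (apelin) rose at day 7 from 3.62 and 2.75 RPKM to 10.0 and 11.5 RPKM (1.50, adjusted p = 0.0012), and its day 14 value was −0.01 (adjusted p = 0.99, 0.18 with centred medians).

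Of 14 angiogenesis inhibitor symbols 11 were tested, and 1 rose and 3 fell at day 7 (median −0.14), and 1 rose and 4 fell at day 14 (median −0.25). Shares over all tested genes were 4.35% higher and 8.49% lower at day 7, and 6.96% higher and 16.0% lower at day 14. Cnmd (chondromodulin) rose at both days (1.23 and 1.04, adjusted p = 0.0033 and 0.0036). Col18a1, the source of endostatin, fell at both days (−1.33 and −1.40, adjusted p = 0.0019 and 0.00079). Tnmd (tenomodulin) fell at day 14 (−1.58, adjusted p = 0.0017). Adamts1 fell by 1.54 at day 7 (adjusted p = 0.00073) and by 0.62 at day 14 (adjusted p = 0.021) on the log2 scale, the latter lost without any 1 of the day 14 libraries (adjusted p from 0.0681 to 0.113) and with centred medians (0.0648).

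Pericytes wrap small vessels and share genes with osteoblast precursors and smooth muscle. Of 10 pericyte markers 7 were tested, and 1 rose and 1 fell at day 7 (median 0.47), and 4 rose and 2 fell at day 14 (median 1.04). Shares over all tested genes were 4.35% higher and 8.49% lower at day 7, and 6.96% higher and 16.0% lower at day 14. Kcnj8 passed the filter through LAMZ libraries alone. Cspg4 (NG2) rose at both days (1.33 and 1.77, adjusted p = 0.0048 and 0.00076). Mcam (CD146), Des (desmin) and Acta2 rose at day 14 (1.63, 1.49 and 1.04, adjusted p = 0.0015, 0.0021 and 0.0054), and Acta2, a smooth muscle actin, was at 674.7 RPKM or more in every library and lost its call with no filter (adjusted p = 0.0515). Pdgfrb, a receptor of platelet-derived growth factor, fell from 56.8 and 57.3 RPKM to 34.5 and 35.7 RPKM at day 7 (−0.68, adjusted p = 0.0080) and from 52.8 and 57.0 RPKM to 30.3 and 34.7 RPKM at day 14 (−0.74, adjusted p = 0.0032). The day 7 Pdgfrb call was lost without LAMZ replicate 1 (0.0718) or LAMZ replicate 2 (0.0513) of that day. Notch3 fell at day 14 from 9.82 and 7.59 RPKM to 4.39 and 5.40 RPKM (−0.71, adjusted p = 0.015), a call lost without control replicate 1 (0.0827) or LAMZ replicate 1 (0.0947) of that day and with centred medians (0.0703) or quantile normalization (0.0634). Of the 12 osteoblast markers, 8 rose and 0 fell at each day, with medians of 1.11 and 1.16, beside the same shares of all tested genes. Dmp1, a gene of late osteoblasts and osteocytes, rose from 5.56 and 8.25 RPKM to 85.5 and 86.2 RPKM at day 7, and Alpl (alkaline phosphatase), Ibsp (bone sialoprotein) and Spp1 (osteopontin) rose at both days.

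The genes whose profile over the 8 libraries was most like that of a called gene were found by the root mean square difference in log2(RPKM + 1), each profile centred on its mean. For Vegfa these were Swap70 (0.089), Cadm1 (0.140) and Sgca (0.157), beside a median of 0.669 over all tested genes. For Vegfc they were Ptrf (0.063), Abat (0.108) and Dynll2 (0.110), beside 0.446. For Angpt1 they were Msx1 (0.186), Cpb1 (0.197) and Pet100 (0.220), beside 0.591, and for Tek they were Sparcl1 (0.076), Lrrn2 (0.123) and Tor4a (0.123), beside 0.541. The genes listed for Vegfc had higher levels than Vegfc, which lay between 0.0836 and 1.95 RPKM. Ptrf lay between 50.6 and 142 RPKM, Abat between 2.43 and 6.23 RPKM and Dynll2 between 8.31 and 20.6 RPKM. The scale understates the change of a gene as low as Vegfc or Tek, so a small difference does not mean an equal fold change.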

How the data were processed

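RNA from MC3T3-E1 cells (named so in the labels; the methods name cultured calvarial cells) was sequenced on an Ion Proton in 8 libraries, 2 for each of DMSO control and LAMZ at day 7 and day 14, with groups taken from the sample labels. The authors assigned reads to genes with CLC Genomics Workbench on mm10 (build per the labels) and deposited 1 RPKM value per symbol and library, scaled within a library; its version and counting settings are not given in the sources used here. In 1 file, of a day 7 LAMZ library, the column name differs in form from the others, and its group was taken from the labels. Of 51826 entries, 4 were dropped because their symbols occur more than once.

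The 10 genes and all lists were chosen with earlier results of these data known. Mapped reads were recovered from low RPKM values with exon lengths of GENCODE M21; 96.5% to 97.6% of the values checked came within 0.05 of a whole read. Reads of single genes used the same lengths, except for Angpt1, Flt1 and Pecam1. There the length that brought reads closest to whole numbers in all 8 libraries was used, or a whole fraction of it that also gave whole reads. Ratios and fold values on pooled reads were scaled by the mapped reads of the groups. Counting intervals and floors (3 reads) cover counting error only, since PCR reads are not independent molecules. Log2(RPKM + 1) of the 12514 genes that reached 1 RPKM in 2 or more libraries was fitted with limma 3.58.1 (R 4.3.3; lmFit, eBayes with trend, 4 groups, 4 residual degrees of freedom), with Benjamini-Hochberg adjustment over all tested genes and a threshold of 0.05. The fit was also run on simulated data, in which genes as low as Vegfc and Tek were not given a change, so their calls were not covered. An exact permutation test of 2 against 2 libraries cannot reach this threshold and was not used. Besides the 10 genes, the text names from each list up to 4 genes with the largest absolute change among those called at day 7 or 14, genes that define a list (Csf1r, Ptprc, Lyz2, Angpt2, Flt4, Tie1, Nrp1, Nrp2, Hif1a and Epas1), and the 3 genes most like each called member. Cldn5, Emcn, Vwf, Runx2, Sp7, S1pr1, Erg, Eng, Pdgfrb, Notch3, Kcnj8, Egfl7, Clec14a, Ndrg1, Ankrd37, Egln1, Egln2, Hgf and Pdgfb were named after their values had been seen. Alternatives were pseudocounts of 0.1 and 5, other filters and scalings, replicate blocks, only the libraries compared, no trend, robust eBayes and leaving out each library. Promoter sequences are from RefSeq (GRCm38.p6).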

Additional observations from a re-analysis of the deposited data

Results flagged for a closer look

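No group had enough libraries for an outlier test. The effect of LAMZ differed between day 7 and day 14, by limma's test of the difference, for 5 of the named genes and for 0 of the 5 tested angiogenic members. The difference (day 14 minus day 7, log2) was −1.33 for Vegfd (adjusted p = 0.0369), which fell more at day 14. It was −1.35 for Bnip3 (adjusted p = 0.0287) and −1.50 for Apln (adjusted p = 0.0396), which rose at day 7 and had day 14 values near 0. It was −1.44 for C1qb (adjusted p = 0.0287) and −1.20 for C1qc (adjusted p = 0.0487), which were at 0 in all LAMZ libraries, so the difference is that between their control levels at the 2 days. Each of the 5 was lost when any 1 of the 8 libraries was left out, with adjusted p from 0.0714 to 0.151 for Vegfd, 0.0522 to 0.127 for Bnip3, 0.064 to 0.173 for Apln, 0.0522 to 0.131 for C1qb and 0.0592 to 0.176 for C1qc.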

How the results depend on the processing

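Of 475 values of the tested members recomputed under alternatives, 417 kept their direction and their side of the threshold, 42 lost a call, 2 gained one, 14 changed sign without a call and 0 reversed a call. At day 7 the count of called members went from 1 to 0 with a mean RPKM of at least 1, which leaves out Tek and Vegfc by its construction, and to 0 with only the 4 libraries compared. At day 14 it went from 4 to 1 with no filter, and to 2 with a mean RPKM of at least 1 or quantile normalization. Over time it went from 0 to 1 in control cells with the same sum of RPKM (Vegfa), and in LAMZ-treated cells from 2 to 1 with a pseudocount of 5 or no trend and to 0 with no filter. Other than for the filter on the mean, the cause was not tested. Leaving out 1 library gave 0 to 2 called members at day 7, 0 to 4 at day 14, 0 to 0 over time in control, 0 to 2 over time in LAMZ-treated cells and 0 to 0 for the difference between days; where this left a group with 1 library, that library was assumed to vary like the others. Over all genes, the main counts of 1607, 2878, 608, 1797 and 78 in these comparisons ranged over 527 to 3592, 1512 to 5796, 0 to 1135, 488 to 1890 and 0 to 166.

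Same-numbered libraries did not deviate together (r = −0.017 at day 7 and 0.016 at day 14), so the numbers were not used as pairs. With the replicate number as a block, 1, 4, 0, 2 and 0 members were called. With a replicate block within each day, 1 was called at day 7 and 3 at day 14, Vegfc being lost (adjusted p = 0.072), and 0 for the difference between days. This block was not run for the comparisons over time, nor the fit on only the 4 libraries for the difference between days.

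Depth limited Pgf, Kdr and Pecam1, at 0 to 11 reads a library, and widened the intervals of Vegfc, Tek and Cdh5. The 2 libraries of a group bound every test.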
